A study of Rattus norvegicus with 192 samples.

Results

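The 10 genes described here belong to the circadian clock, the molecular oscillator that runs in almost every cell of the body. They were chosen by name from the 38354 genes of an RNA-seq table and are Per1, Per2, Per3, Dbp, Nr1d1, Nr1d2, Bhlhe41, Bmal1, Npas2 and Cry1. The series sequenced polyA RNA from the nucleus accumbens core of heterogeneous stock rats, an outbred laboratory population, with 1 library per rat. Its labels give no treatment, sex, age or time of day, so the libraries divide only by how the rat identifier is written. In the corrected E21 group the submitters had replaced the label with an identifier starting with E21 that they read from the genotype. The E21 group had an identifier starting with E21 from the outset, and the numeric group had one made only of digits. No label says what the formats stand for, whether a batch, a cohort or a time of collection.

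Levels were read in the 147 of 159 libraries that had at least 100 counts per 1000000 (CPM) of Drd1, the dopamine D1 receptor of medium spiny neurons. These were 12 corrected E21, 76 E21 and 56 numeric libraries, 2 whose identifiers start with AA1, and 1 corrected to another format. The other 12 libraries had Drd1 between 1.61 and 20 CPM. In 11 of them Th, the dopamine synthesis enzyme of midbrain neurons, ranged from 630 to 1758 to 2107 CPM (lowest, median and highest), while the last had 1993 CPM of the cortical transporter gene Slc17a7. Those libraries were left out because their RNA did not carry the profile of the labelled tissue. Total expected counts of the 147 ranged from 14.6 to 61.2 M (M, 1000000 counts). The smallest value behind a clock gene level in them was 220 counts, for Per2 in 1 library.

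In the clock, the transcription factor Bmal1 pairs with Clock or, in forebrain, with Npas2, and the pair switches on genes through a DNA word called the E-box. Among those genes are Per1 to Per3 and Cry1, whose proteins return to block the pair, Nr1d1 and Nr1d2, whose proteins (REV-ERB alpha and beta) repress Bmal1 through ROR elements, and Dbp, an output factor that acts through D-boxes. Bhlhe41 (DEC2) is another E-box repressor. As a result Dbp, the Nr1d genes and the Per genes peak in one part of the day in most tissues and Bmal1 and Npas2 in another, with Cry1 late. Per1 to Per3, Dbp, Nr1d1, Nr1d2 and Bhlhe41 are called the 7 output genes here, and Bmal1, Npas2 and Cry1 the Bmal1 group.

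The stretch of 250 bases before the transcription start is shown for the 5 members in which it holds one of these 3 words, because the results turn on which genes move with or against Bmal1 and Nr1d1. Sequences and coordinates are those of RefSeq for the rat assembly GRCr8, in which 9 of the 10 members had an entry, with 10 starts in all. Each runs 5′ to 3′ on the gene's own strand and ends at the base before the start, with the word in capitals. Nr1d1 (chr10:84229455-84229704, minus strand, the downstream of its 2 starts) and Bhlhe41 (chr4:180569356-180569605, minus strand) hold the E-box. Bmal1 (chr1:176766078-176766327, plus strand) and Nr1d2 (chr15:9954784-9955033, plus strand) hold the ROR half-site, and Per2 (chr9:99496994-99497243, minus strand) holds the D-box.
Nr1d1: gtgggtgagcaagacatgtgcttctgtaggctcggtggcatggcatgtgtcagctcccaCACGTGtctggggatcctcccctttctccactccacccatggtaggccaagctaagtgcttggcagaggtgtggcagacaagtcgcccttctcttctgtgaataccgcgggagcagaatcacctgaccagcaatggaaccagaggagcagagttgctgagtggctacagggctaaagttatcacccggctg
Bhlhe41: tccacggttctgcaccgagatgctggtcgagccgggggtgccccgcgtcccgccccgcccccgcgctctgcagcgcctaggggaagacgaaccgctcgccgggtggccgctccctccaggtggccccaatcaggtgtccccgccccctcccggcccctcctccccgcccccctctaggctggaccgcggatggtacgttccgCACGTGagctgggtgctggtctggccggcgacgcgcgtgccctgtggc
Bmal1: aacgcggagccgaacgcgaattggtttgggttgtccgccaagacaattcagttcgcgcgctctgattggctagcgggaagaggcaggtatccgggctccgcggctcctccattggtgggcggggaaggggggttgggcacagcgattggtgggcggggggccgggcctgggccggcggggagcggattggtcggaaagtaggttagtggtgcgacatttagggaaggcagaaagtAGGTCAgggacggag
Nr1d2: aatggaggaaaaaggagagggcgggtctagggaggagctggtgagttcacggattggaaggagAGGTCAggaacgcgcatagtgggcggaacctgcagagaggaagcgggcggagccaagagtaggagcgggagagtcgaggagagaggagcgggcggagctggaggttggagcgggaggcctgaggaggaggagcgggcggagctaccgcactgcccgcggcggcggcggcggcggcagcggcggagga
Per2: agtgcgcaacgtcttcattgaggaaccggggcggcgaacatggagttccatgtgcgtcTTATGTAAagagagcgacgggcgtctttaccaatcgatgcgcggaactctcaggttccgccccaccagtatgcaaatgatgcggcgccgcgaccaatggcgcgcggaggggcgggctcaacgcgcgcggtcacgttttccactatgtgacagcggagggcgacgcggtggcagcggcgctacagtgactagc

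The E-box was searched as CACGTG, the ROR half-site as AGGTCA and the D-box as TTATGTAA or TTACGTAA, on both strands, and no match overlapped another. Of all 33469 starts in the table, 5.59% had the E-box in the same window, 14.1% the half-site and 0.932% a D-box. The word began 191 bases before the start in Nr1d1, 48 in Bhlhe41, 15 in Bmal1, 187 in Nr1d2 and 192 in Per2. A match is only a run of letters, and for Dbp, Per1, Per3, Npas2 and the other start of Nr1d1 these letters were not in this window.

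All 10 genes were expressed in every library at levels that varied by 2.15-fold to 4.1-fold between rats. Per1 ranged over 34.7, 82.9 and 124 CPM (lowest, median and highest of the 147 libraries), Per2 over 12.7, 26.8 and 52.2 CPM, and Per3 over 24.1, 48.2 and 71.5 CPM. Dbp ranged over 131, 195 and 282 CPM, Nr1d1 over 65.1, 96.1 and 141 CPM, Nr1d2 over 52.6, 90.2 and 117 CPM and Bhlhe41 over 105, 164 and 233 CPM. Bmal1 ranged over 24.9, 41.1 and 57 CPM, Npas2 over 67.7, 122 and 153 CPM, and Cry1 over 13.8, 21.4 and 34.6 CPM. CPM is not scaled to transcript length, so these levels compare rats for 1 gene and not genes with each other. Dbp had the narrowest range of the 10, and the widest, that of Per2, rests on 1 E21 library at 52.2 CPM, the next highest having 36.6 CPM.

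**Figure D1:**
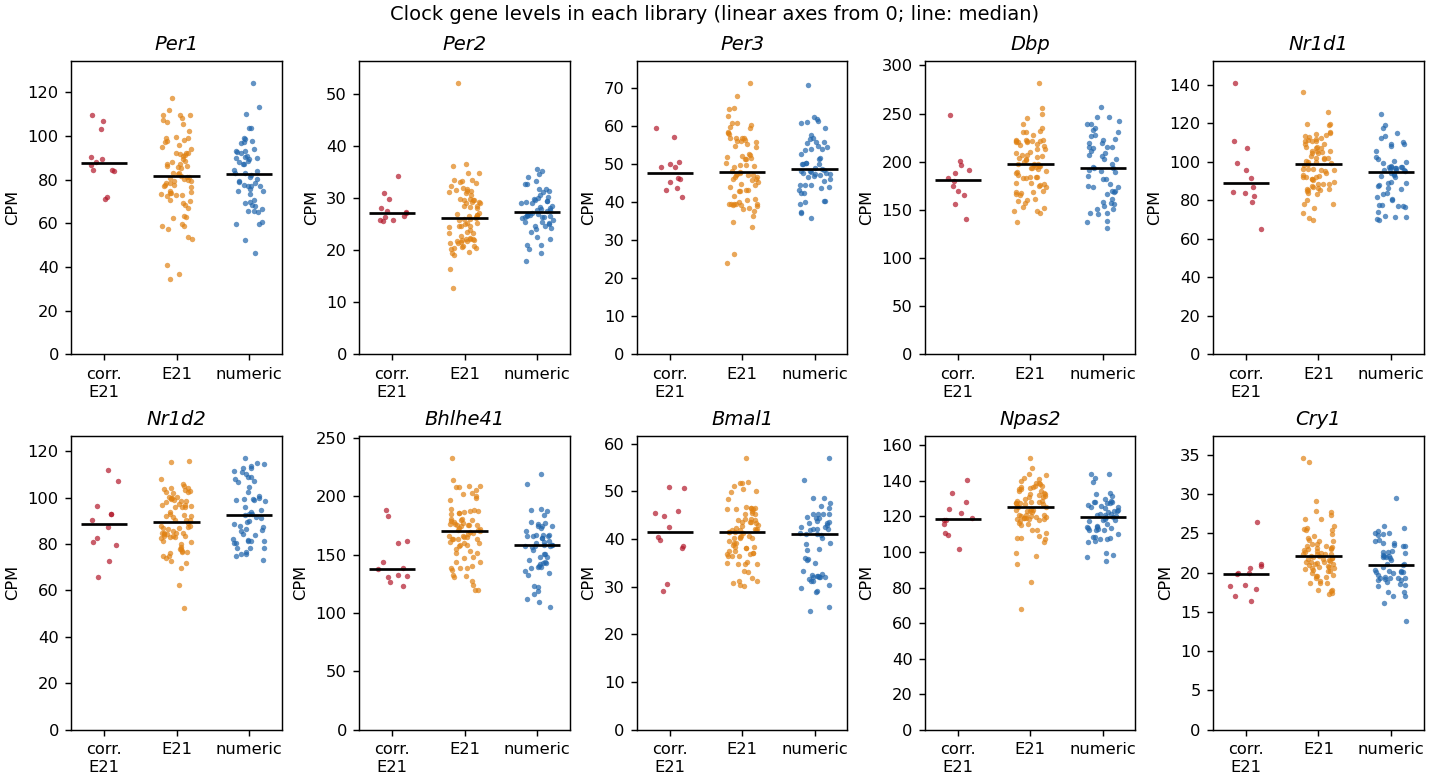
Level of each clock gene in CPM (linear axis from 0), 1 point per library, in 12 corrected E21, 76 E21 and 56 numeric libraries, with a line at each median. The 3 formats overlap for every gene, and the lowest Per1 and Per2 points, at 34.7 and 12.7 CPM, are E21 libraries.

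The spread of the clock genes lay near that of other genes. The standard deviation (SD) of log2(CPM + 1) over the 147 libraries was 0.30 for Per1, 0.25 for Per2 and 0.24 for Per3. It was 0.23 for Dbp, 0.21 for Nr1d1, 0.20 for Nr1d2 and 0.22 for Bhlhe41. In the Bmal1 group the SD was 0.23 for Bmal1, 0.19 for Cry1 and 0.16 for Npas2. Their median of 0.22 compares with 0.24 over the 15327 genes tested, those with a mean of at least 1 CPM. Per1 was the most variable of the 10, with 86.8% of the 4087 genes of similar mean level (within 2-fold) below its SD, and Npas2 the least, with 32.8% of 3220. The same share was 40.4% for Cry1 and between 52% and 71.5% for the other 7 members, so 8 of the 10 exceeded the median gene of similar level.

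The 10 genes varied together in sets, described here pair by pair. Each pair was described by Pearson's r and Spearman's rho of log2(CPM + 1), each with a 2-sided permutation p from 100000 resamples, whose smallest possible value is 1e-05. A pair was called when the limma slope of each gene on the other, fitted for all genes, had an adjusted p under 0.05 in both directions (Benjamini-Hochberg). Of the 45 pairs, 30 were called, 25 positive and 5 negative. Within the output genes 15 of 21 pairs were called, all positive, with a median r of 0.37 over the 21 (range -0.09 to 0.69). Within the Bmal1 group all 3 pairs were called, at r of 0.28 to 0.49. Between the groups 7 pairs were called positive and 5 negative, and the median r was 0.12 (range -0.51 to 0.45).

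These counts need the background of each gene, because a large share of all genes was associated with several members. The share of the other 15326 tested genes whose slope was called was 68% for Per1, 67.8% for Per2, 74.4% for Per3, 60.8% for Npas2 and 56.1% for Nr1d2. It was 52.4% for Dbp, 53.1% for Bmal1, 35.5% for Bhlhe41, 26.3% for Nr1d1 and 23.1% for Cry1. A call with a Per gene is therefore near the background, whereas size separates the members more clearly. An absolute r of at least 0.5 was reached by 14.8% of genes with Per1, 13.9% with Per2 and 26% with Per3, against 0.0783% (12 genes) with Nr1d1, 0.431% with Cry1, 0.874% with Dbp and 1.34% with Bmal1. The shares were 3.18% for Nr1d2, 4.18% for Npas2 and 4.48% for Bhlhe41.

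Part of the background of the Per genes went with 1 library-wide pattern. The first principal component of all tested genes held 27.5% of their variance, and its sign was set so that it rises with Per3. It ran opposite to the mean z-score of 74 genes of the mitochondrial respiratory chain (r = -0.91), a list picked after the data were seen. Its score had a lowest, median and highest value of -0.13, 0.33 and 0.88 in corrected E21 libraries, -3.62, 0.24 and 1.26 in E21 libraries and -0.98, 0.34 and 0.95 in numeric libraries. Scores below -1 occurred in 24 libraries, of which 23 were E21, so results that rest on them are also given for the other 123 libraries, a limit set after seeing the data. Given this component as a covariate, 25.6% of all genes were called on Per1, 10.8% on Per2 and 38.7% on Per3. Without it the shares were 68%, 67.8% and 74.4%. What this component stands for was not tested.

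**Figure D2:**
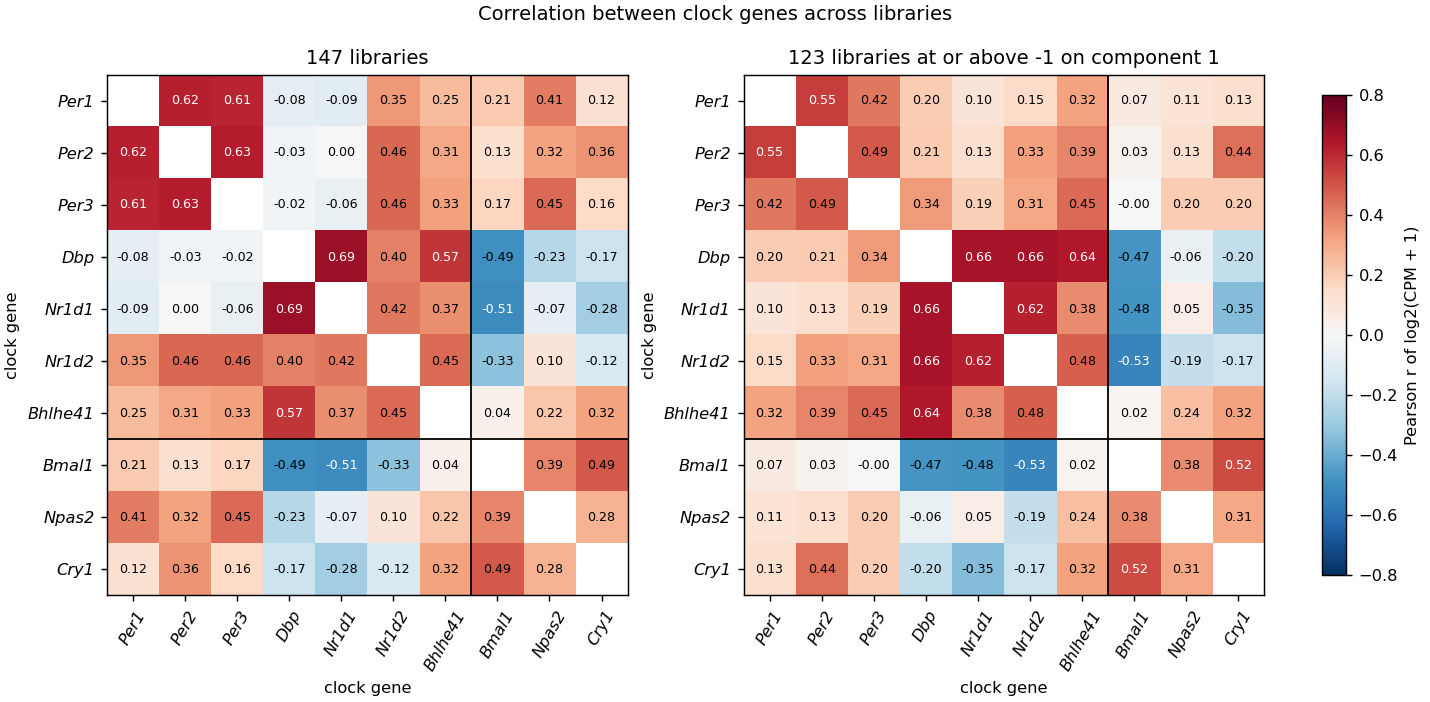
Pearson r between each pair of the 10 clock genes on log2(CPM + 1), in all 147 libraries (left) and in the 123 with a score of at least -1 on the first principal component (right). Lines divide the 7 output genes from Bmal1, Npas2 and Cry1. The block of Dbp, Nr1d1 and Nr1d2 against Bmal1 is negative in both panels, and the output block turns wholly positive in the right one (0.10 to 0.66).

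Dbp and Nr1d1 formed the tightest pair of the 10. Their r was 0.69 and their rho 0.67 (permutation p = 1e-05 for each, the smallest possible), and r was 0.74 in corrected E21, 0.73 in E21 and 0.64 in numeric libraries. Without the 2 libraries farthest from the median of Dbp it was 0.68, and given the first principal component it was again 0.69. Among all 15326 genes Dbp ranked first by its r with Nr1d1, while Nr1d1 ranked second by its r with Dbp, behind Ciart.

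Nr1d2 and Bhlhe41 also rose with this pair. Nr1d2, the partner repressor of Nr1d1, had r = 0.42 with Nr1d1 and 0.40 with Dbp over the 147 libraries. With Nr1d1 it had 0.67 in corrected E21, 0.33 in E21 and 0.63 in numeric libraries, and with Dbp 0.88, 0.24 and 0.57. Among 15326 genes it ranked 44 by r with Nr1d1 and 447 by r with Dbp. In the 123 libraries of higher component score its r was 0.62 with Nr1d1 and 0.66 with Dbp, so 24 libraries moved the second of them by more than 1.5 times. Bhlhe41 had r = 0.57 with Dbp, 0.45 with Nr1d2 and 0.37 with Nr1d1, and its value with Dbp was 0.73 in corrected E21, 0.44 in E21 and 0.68 in numeric libraries. All 5 pairs were called, with permutation p = 1e-05, the smallest possible, for r and for rho.

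Bmal1 moved against the REV-ERB genes and Dbp. It had r = -0.51 (rho -0.53) with Nr1d1, -0.49 (rho -0.54) with Dbp and -0.33 (rho -0.38) with Nr1d2, all 3 called. Rats with more Nr1d1 transcript thus tended to have less Bmal1 transcript, and the cause was not tested. Only 3 of 15326 genes had a lower r with Nr1d1 than Bmal1 did. The value with Nr1d1 was -0.73 in corrected E21, -0.44 in E21 and -0.63 in numeric libraries. With Dbp it was -0.66 in corrected E21, -0.53 in E21 and -0.47 in numeric libraries, so both were negative in each format. Once the 12 libraries of low Drd1 entered, the values were 0.21 with Nr1d1 and 0.29 with Dbp. Nr1d2 differed in this, with r = -0.76 in corrected E21, 0.02 in E21 and -0.61 in numeric libraries, and -0.53 over the 123 libraries. The difference on the log2 scale between Dbp and Bmal1, a within-library contrast of the opposed genes, spanned 1.45 to 2.98 (median 2.09) in corrected E21, 1.48 to 3.14 (median 2.29) in E21 and 1.51 to 3.21 (median 2.23) in numeric libraries. The 3 formats overlapped over most of this range, which exceeded 1 log2 unit in each.

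**Figure D3:**
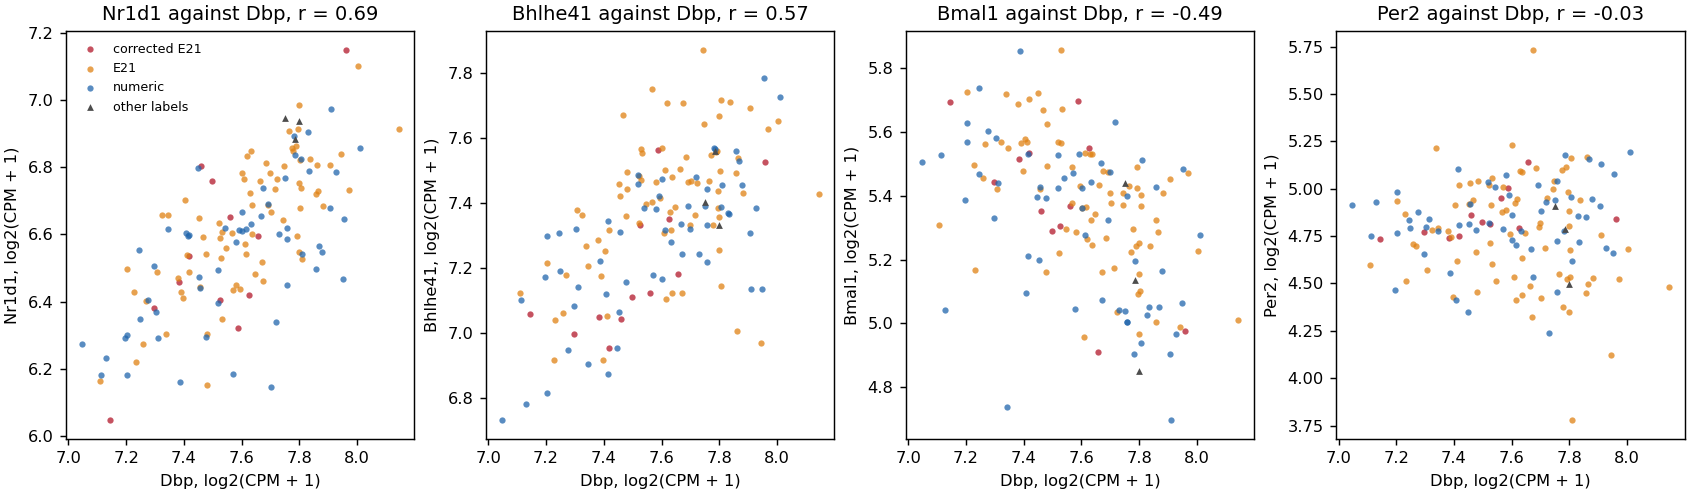
Nr1d1, Bhlhe41, Bmal1 and Per2 against Dbp, all as log2(CPM + 1), 1 point per library, coloured by identifier format. Nr1d1 and Bhlhe41 climb with Dbp (r = 0.69 and 0.57), Bmal1 declines (r = -0.49) and Per2 shows no slope (r = -0.03), with 1 E21 library, at 52.2 CPM of Per2, far above the rest.

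Within the Bmal1 group, Cry1 followed Bmal1 most closely over the 147 libraries, though not in each format. Bmal1 and Cry1 had r = 0.49 (rho 0.54), with 0.39 in corrected E21, 0.43 in E21 and 0.59 in numeric libraries. Bmal1 and Npas2 had r = 0.39, with 0.47 in corrected E21, 0.45 in E21 and 0.25 in numeric libraries. Npas2 thus had the higher r with Bmal1 in corrected E21 and E21 libraries, and Cry1 in numeric libraries. Npas2 and Cry1 had r = 0.28. All 3 genes ran against markers of cortical neurons, and given the cortical score r was 0.35 for Bmal1 with Cry1, 0.28 for Bmal1 with Npas2 and 0.12, no longer called, for Npas2 with Cry1. Cry1 was lower where Nr1d1 was higher (r = -0.28, called), whereas its r of -0.17 with Dbp was not called. Npas2, which can stand in for Clock, had r = -0.23 with Dbp (called) and -0.07 with Nr1d1 (not called). Over the 123 libraries the Npas2 value with Dbp was -0.06.

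The 3 Per genes moved with each other, while none of their pairs with Dbp or Nr1d1 was called. Their 3 pairs had r between 0.61 and 0.63, all called, with medians of 0.42 in corrected E21, 0.66 in E21 and 0.55 in numeric libraries. Many other genes had a higher r with them. Among 15326 genes, Per2 ranked 1246 and Per1 1498 by r with Per3. By r with Per1, Per2 ranked 314 and Per3 460, and by r with Per2, Per3 ranked 86 and Per1 132. Given the first principal component, r was between 0.31 and 0.40 for the 3 pairs. Against Dbp and Nr1d1 the 6 values lay between -0.09 and 0.00. In the 123 libraries of higher component score the same 6 values lay between 0.10 and 0.34, the highest for Per3 with Dbp. With Nr1d2 the Per genes had r = 0.35 (Per1), 0.46 (Per2) and 0.46 (Per3), and 0.15, 0.33 and 0.31 over the 123 libraries.

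A principal component analysis of the 10 genes alone gave 2 main directions. The first held 32.1% of their variance, with its largest weights on Per2 (0.46), Per3 (0.46) and Per1 (0.43). The second held 28.5% and set Dbp (0.51), Nr1d1 (0.50) and Nr1d2 (0.36) against Bmal1 (-0.44) and Cry1 (-0.25), with the Per genes between -0.05 and 0.00.

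The Per genes had the highest r with the library-wide component over the 147 libraries, at 0.72 for Per3, 0.61 for Per2 and 0.60 for Per1. Their order differed by format: Per3 had 0.65 in corrected E21, 0.83 in E21 and 0.38 in numeric libraries, Per2 had 0.38 in corrected E21, 0.62 in E21 and 0.63 in numeric libraries, and Per1 had 0.18 in corrected E21, 0.70 in E21 and 0.43 in numeric libraries. Npas2 had r = 0.46, Nr1d2 0.45 and Bmal1 0.34 with it, and Dbp had -0.37. These also differed by format, some in sign. In corrected E21, E21 and numeric libraries, in that order, Npas2 had -0.55, 0.63 and 0.22, and Bmal1 -0.38, 0.57 and 0.17. Dbp had 0.47, -0.48 and -0.25, and Nr1d2 0.52, 0.54 and 0.26. Over the 147 libraries Nr1d1 (-0.17), Cry1 (0.09) and Bhlhe41 (0.05) had the weakest values. Their adjusted permutation p over the 90 relations of members with library scores was 0.0705, 0.394 and 0.662. In corrected E21 libraries Nr1d1 had 0.53, Cry1 0.18 and Bhlhe41 0.34. The 2 strongest partners of Per3 among other genes were the splicing factor gene Srrm2 (r = 0.81) and Smg1, a kinase of nonsense-mediated decay (r = 0.80). Its lowest r included Cox5a, a cytochrome oxidase subunit (-0.77), and Per2 likewise had Ndufs6 (-0.67) and Cox6b1 (-0.66) of the respiratory chain.

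Other genes also paired with each member, taken as the 3 highest and 3 lowest r outside the preset lists. Many such relations were general. Given the cortical score, the share of genes with an absolute r of at least 0.5 was 0.0457% for Bhlhe41 and 0.0261% for Cry1. Without the score it was 4.48% and 0.431%. Mt1, a metallothionein, had the highest r with Dbp (0.66), followed by Trnp1 (0.64) and Cyb5r3 (0.64), and Limch1 the lowest (-0.61). For Nr1d1 these were Lrrc4b (0.54) and the endoplasmic reticulum chaperone gene Hsp90b1 (-0.53). Nr1d2 had its highest values with Ikzf5 (0.67) and Hif1a, the hypoxia-inducible factor (0.66), and its lowest with the sphingosine kinase gene Sphk2 (-0.58). Klf5 led for Bhlhe41 (0.77), Car12, a carbonic anhydrase, for Bmal1 (0.68) and Papola, a poly(A) polymerase, for Cry1 (0.63). Adcy5, an adenylyl cyclase, led for Npas2 (0.70). Lrrc8c led for Per1 (0.75) and Rbfox2 for Per2 (0.70). Rbfox2 with Per2 was 0.07 in corrected E21, 0.73 in E21 and 0.64 in numeric libraries. Likeness here is the r over 147 libraries and carries no statement on function.

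Of 9 other clock transcription factors with a mean of at least 1 CPM, 2 had a positive and 4 a negative called slope on Dbp, and 4 a positive and 1 a negative one on Nr1d1. On Bmal1 4 were positive and 3 negative. Of all genes 52.4% were called on Dbp, 26.3% on Nr1d1 and 53.1% on Bmal1. The counts out of 9 lie above these shares for all 3 members, and with so few genes the excess was not tested. The medians of r were 0.07, 0.02 and -0.07, against -0.05, -0.07 and 0.03 over all genes. Ciart (CHRONO), a repressor of the Bmal1 complex, had the highest r of all genes with Dbp, at 0.78 (rho 0.77; limma adjusted p = 8.48e-27), 0.69 with Nr1d1 (limma adjusted p = 4.63e-18) and -0.50 with Bmal1 (limma adjusted p = 5.53e-09). Its r with Dbp was 0.90 in corrected E21, 0.78 in E21 and 0.77 in numeric libraries. Hlf, a relative of Dbp that binds the same D-box, had r = 0.47 with Dbp and 0.47 with Nr1d1, both called, and -0.07 with Bmal1, not called. Among the same factors, Tef had r = 0.12 with Dbp and 0.02 with Nr1d1, neither called.

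Among these factors Nfil3 had the lowest r with Nr1d1, and Bhlhe40 the lowest with Bmal1 after Ciart. Nfil3, which opposes Dbp at the D-box, had r = -0.36 with Nr1d1 (limma adjusted p = 0.000212), -0.21 with Dbp and 0.24 with Bmal1, all called. Within formats its value with Nr1d1 was -0.65 in corrected E21, -0.19 in E21 and -0.65 in numeric libraries, and that with Bmal1 was 0.56 in corrected E21, -0.20 in E21 and 0.53 in numeric libraries. Bhlhe40 (DEC1), the paralog of Bhlhe41, had r = -0.43 with Bmal1 (limma adjusted p = 8.32e-07), which was -0.76 in corrected E21, -0.14 in E21 and -0.74 in numeric libraries, and -0.71 over the 123 libraries. It had r = 0.29 with Nr1d1, called. Clock had r = -0.38 with Dbp and 0.33 with Bmal1, both called, but -0.14 and 0.19 in the 123 libraries. Cry2 had -0.19 and 0.26, both called, Tef 0.24 with Bmal1, called, and Rorb -0.39 with Dbp, called; over the 123 libraries Cry2 had 0.05 and 0.17, and Rorb -0.21. Rora, which competes with the REV-ERB proteins at ROR elements, had r = 0.25 with Nr1d1 and -0.18 with Bmal1, both called.

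Among 15 genes for proteins that modify clock proteins, 2 had a positive and 4 a negative called slope on Dbp, 2 a positive and 0 a negative one on Nr1d1 (limma), and 7 a positive and 1 a negative one on Bmal1. These counts are near or below the shares of all genes called, 52.4% on Dbp, 26.3% on Nr1d1 and 53.1% on Bmal1. Their median r was -0.08 with Dbp, -0.04 with Nr1d1 and 0.07 with Bmal1. Usp2, a deubiquitinase of clock proteins, had the third highest r of all genes with Nr1d1, at 0.55 (limma adjusted p = 5.65e-09), with 0.86 in corrected E21, 0.52 in E21 and 0.55 in numeric libraries. It had r = 0.48 with Dbp and 0.41 with Nr1d2, both called, and -0.10 with Bmal1, not called. Nono, a partner of PER proteins, was the other positive gene, at 0.35 with Dbp and 0.25 with Nr1d1. Wdr5, a further PER partner, had r = 0.47 with Bmal1 (limma adjusted p = 1.00e-07). The ubiquitin ligase genes Btrc and Fbxw11, which act on PER proteins, had 0.36 and 0.40 with Bmal1 and -0.38 and -0.29 with Dbp, all called, but -0.12 and -0.07 with Dbp over the 123 libraries, where Nono had 0.15 with Dbp and 0.03 with Nr1d1. Csnk1d, the PER kinase gene, had 0.36 with Bmal1 and Timeless -0.25, both called. Gsk3b, Sirt1 and Fbxl21 were the remaining positive genes with Bmal1, at 0.25 to 0.26, and Gsk3b (-0.23) and Prkaa2 (-0.31) the remaining negative genes with Dbp. Over the 123 libraries Gsk3b had 0.07, Sirt1 0.15, Fbxl21 0.19 and Btrc 0.23 with Bmal1, and Gsk3b 0.02 and Prkaa2 -0.13 with Dbp. Csnk1e, Tipin and Nampt had no call with these 3 members. Nampt, the NAD synthesis gene, instead had r = 0.64 with Nr1d2 (limma adjusted p = 6.96e-15), the fifteenth highest of all genes, and 0.55 over the 123 libraries.

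**Figure D4:**
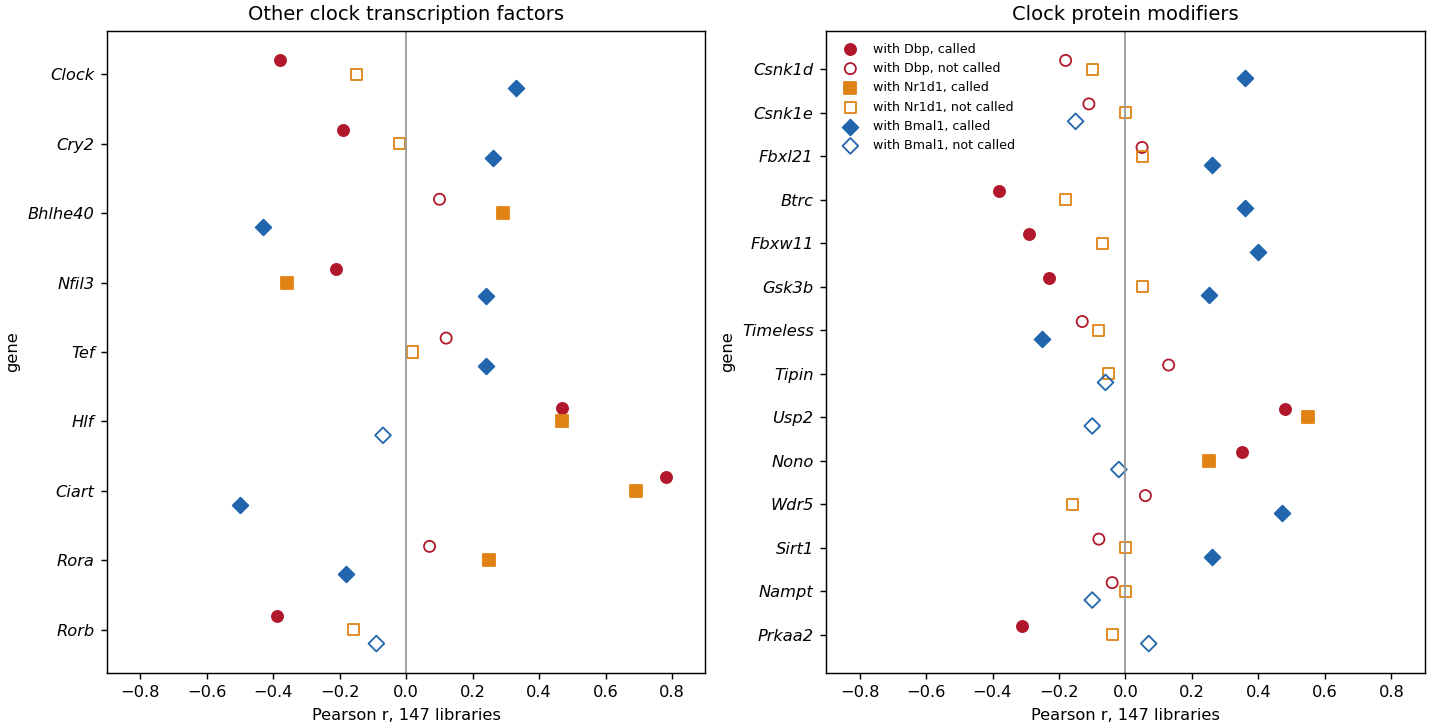
Pearson r over 147 libraries of 9 other clock transcription factors (left) and of clock protein modifiers (right) with Dbp (circles), Nr1d1 (squares) and Bmal1 (diamonds); filled symbols were called by the limma slope over all genes. Ciart lies at 0.78 and 0.69 with Dbp and Nr1d1 and at -0.50 with Bmal1, and Usp2 at 0.48 and 0.55.

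Per1 is also a direct target of the glucocorticoid receptor. Of 10 glucocorticoid-response genes, 7 had a positive and 1 a negative called slope on Per1, with a median r of 0.40 against 0.07 over all genes. The count is near the background, since 68% of all genes were called on Per1. Klf9 had r = 0.68 (limma adjusted p = 3.84e-19), Pdk4 0.58, Errfi1 0.47 and Fkbp5 0.46, all called. Zbtb16, named after its value was seen, was the negative one (-0.20). Over the 123 libraries Errfi1 had 0.56, Pdk4 0.46, Klf9 0.38 and Fkbp5 0.16. Per2 had 4 such genes positive, Per3 had 5, Dbp 1 positive and 2 negative, and Nr1d1 5 negative. For Per2 and Per3 these are below the 67.8% and 74.4% of all genes called. The count on Dbp is also below its 52.4%, and that on Nr1d1 is above its 26.3%. The mean z-score of the list had r = 0.49 with Per1, and 0.50 in each of the corrected E21, E21 and numeric libraries. With Nr1d1 the score had r = -0.21, and -0.49 in corrected E21, -0.24 in E21 and -0.03 in numeric libraries. No stress or hormone measure is in the labels.

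Immediate early genes, which neurons switch on within minutes of activity, had 3 positive and 2 negative called slopes of 12 on Per1. Egr2 had r = 0.38 and Fosb 0.27 with Per1, and Btg2 (-0.35) and Ier2 (-0.28) were the negative ones. Over the 123 libraries Fosb had 0.55, Egr2 0.47, Btg2 -0.29 and Ier2 -0.27. Per3 had 7 negative calls, with a median r of -0.24 against 0.09 over all genes. Both counts are below the 68% of all genes called on Per1 and the 74.4% called on Per3. Dbp had 1 positive and 3 negative calls, below the 52.4% of all genes called on it. Fos (r = -0.33), Arc (-0.25) and Npas4 (-0.20) were the negative ones. Egr4 was positive at 0.19, and at 0.05 over the 123 libraries. Fos with Dbp was 0.13 in corrected E21, -0.21 in E21 and -0.52 in numeric libraries. Arc with Dbp was 0.20 in corrected E21, -0.13 in E21 and -0.47 in numeric libraries. Nr1d1 had 3 positive genes, at 26.3% of all genes called. Egr4 led with 0.28, which was 0.49 in corrected E21, 0.39 in E21 and 0.04 in numeric libraries and 0.17 over the 123 libraries. Fosb with Nr1d1 was 0.37 in E21 and -0.09 in numeric libraries, and Junb with Nr1d1 0.39 in E21 and -0.11 in numeric libraries.

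Temperature-responsive genes had 3 positive and 4 negative calls of 8 on Dbp, at 52.4% of all genes called. The cold-inducible RNA-binding protein genes Cirbp and Rbm3 had r = 0.53 (limma adjusted p = 1.42e-09) and 0.46 (limma adjusted p = 1.89e-07) with Dbp. The heat-shock genes Hsp90aa1 and Hspa1b had -0.39 and -0.34, both called, and -0.25 and -0.19 over the 123 libraries. Dnajb1, also a heat-shock gene and named after its value was seen, was the third positive call (r = 0.23; -0.01 over the 123 libraries). Against Nr1d1 the chaperone gene Hspa5 had r = -0.48 (limma adjusted p = 4.92e-07) and Hsp90aa1 -0.33, and Cirbp 0.31, all called. Cirbp with Dbp was 0.36 in corrected E21, 0.60 in E21 and 0.48 in numeric libraries, and Rbm3 with Dbp was 0.56 in corrected E21, 0.44 in E21 and 0.57 in numeric libraries.

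Several members also moved with markers of cell types, and in bulk tissue fewer cells of a type and less RNA per cell cannot be told apart. All 8 markers of cortical glutamatergic neurons had a negative called slope on Bhlhe41, on Bmal1 and on Cry1, with median r of -0.63, -0.38 and -0.47, against 0.01, 0.03 and 0.01 over all genes. Of all genes 35.5% were called on Bhlhe41, 53.1% on Bmal1 and 23.1% on Cry1. The cortical list summed to 48, 637 and 1010 CPM (lowest, median and highest) in corrected E21, 26.3, 149 and 1486 CPM in E21 and 42.5, 360 and 1314 CPM in numeric libraries, with 2 of the 8 genes at 0 in some E21 library. All 10 markers of medium spiny neurons had a positive called slope on the same 3 members, with medians of 0.52, 0.45 and 0.39. On Nr1d1 none of the 8 cortical markers was called, and 2 of the 10 medium spiny markers were.

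The pairs of members differed in how they stood once the cortical score was a covariate. Given that score, 13 pairs of output genes, 2 of the 3 pairs of the Bmal1 group and 11 pairs between the groups (4 positive, 7 negative) were called. Of all genes 68.3% were then called on Per1, 68.1% on Per2, 75.3% on Per3, 55.1% on Dbp, 57.5% on Nr1d2 and 58.5% on Npas2. The share given the score was 45.8% for Bmal1, 28.8% for Nr1d1, 8.97% for Bhlhe41 and 0.535% for Cry1. The r of Dbp with Nr1d1 was 0.70 and of Dbp with Bmal1 -0.64, each at least as far from 0 as without it. Others were nearer to 0 given the score: Per3 with Bhlhe41 at 0.07, Bhlhe41 with Cry1 at -0.02 and Bhlhe41 with Npas2 at -0.02, against 0.33, 0.32 and 0.22 without it. Bhlhe41 and Bmal1 had r = -0.33 with the score and 0.04 without it. Without the covariate, all 7 astrocyte markers and 5 of 6 microglial markers had a negative called slope on Bmal1, with median r of -0.28 and -0.25. Of all genes 53.1% were called on Bmal1 in either direction, and their median r was 0.03.

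**Figure D5:**
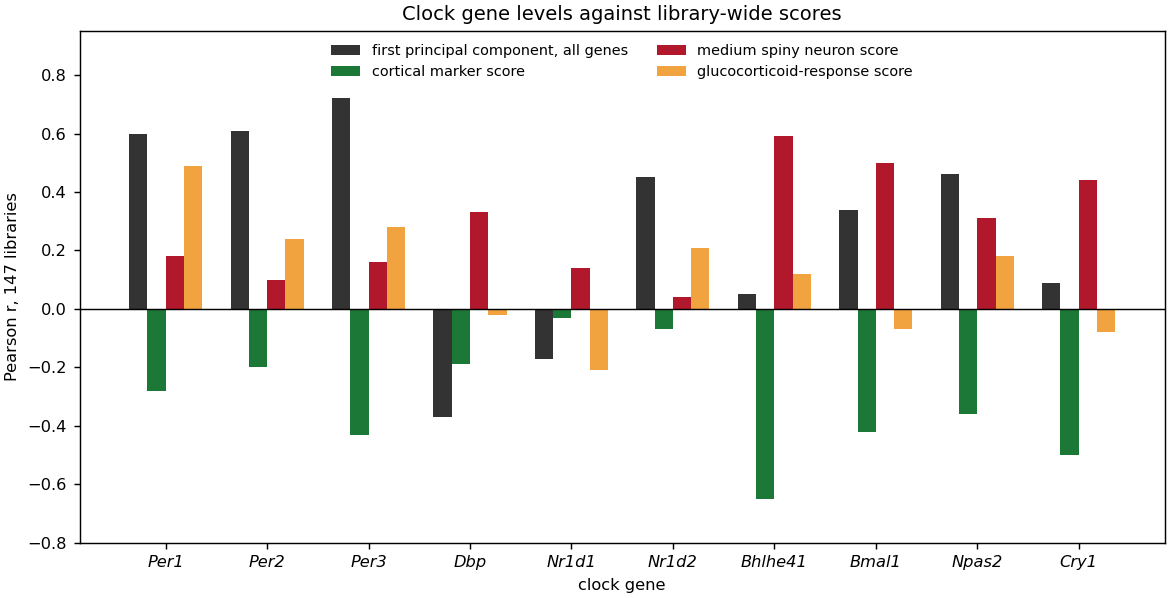
Pearson r over 147 libraries of each clock gene with the first principal component of all genes and with the mean z-score of cortical neuron, medium spiny neuron and glucocorticoid-response genes. The component is highest with the Per genes (0.60 to 0.72), the cortical score lowest with Bhlhe41 (-0.65) and Cry1 (-0.50), and Nr1d1 is near 0 with the cortical score (-0.03).

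Between identifier formats the clock genes differed little. In E21 against numeric libraries, limma called 2 of the 10 members higher and 0 lower (4 had an unadjusted p under 0.05), at 11.8% of all genes called higher and 25.8% lower. Bhlhe41 ranged over 120, 171 and 233 CPM in E21 libraries, against 105, 158 and 219 CPM in numeric libraries, a log2 difference of 0.12 (SE 0.037, limma adjusted p = 0.00694). Nr1d1 ranged over 70, 99.2 and 137 CPM in E21 libraries, against 69.8, 94.8 and 125 CPM in numeric libraries, a log2 difference of 0.09 (SE 0.035, limma adjusted p = 0.044). In both genes the groups overlapped over nearly their whole range. Cry1 (0.08, adjusted p = 0.0519) and Bmal1 (0.09, adjusted p = 0.075) by limma were not called, and the 95% intervals of the 10 differences lay between -0.15 and 0.19.

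Scaling and composition moved these calls. With median-of-ratios scaling 2808 genes were called higher and 2793 lower, in place of 1807 and 3951, and 5 members were higher, Bmal1, Npas2 and Cry1 beside the 2 above. With the cortical score as a covariate Bhlhe41 was at 0.02 and no longer called, Nr1d1 stayed at 0.10, and Per3 (-0.15) and Per2 (-0.12) were called lower. That score had a median of -0.38 in E21 and 0.42 in numeric libraries. Without the libraries of low component score Bhlhe41 was at 0.13, Bmal1 at 0.16 and Npas2 at 0.11, called, while Nr1d1, at 0.04, was not.

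In corrected E21 against E21 libraries, 2 members were called lower and 0 higher by limma (2 had an unadjusted p under 0.05), at 1.89% of all genes called lower and 6.24% higher. Bhlhe41 ranged over 123, 138 and 188 CPM in corrected E21 libraries, against 120, 171 and 233 CPM in E21 libraries (log2 difference -0.21, SE 0.064, limma adjusted p = 0.0286). Cry1 ranged over 16.4, 19.8 and 26.4 CPM in corrected E21 libraries, against 17.3, 22.1 and 34.6 CPM in E21 libraries (log2 difference -0.18, SE 0.059, limma adjusted p = 0.0432). The groups overlapped for both genes, with the lowest Cry1 values in corrected E21 libraries and the highest values of both genes in E21 libraries. With the cortical score as a covariate the differences were -0.06 and -0.08 and neither was called. Of all 15327 genes only 14 were then called higher and 2 lower, so nearly all calls were lost and not only these. The score had a median of 0.82 in corrected E21 and -0.38 in E21 libraries. With median-of-ratios scaling 721 genes were called higher and 506 lower, in place of 957 and 290, and the same 2 members were lower.

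Some relations between clock genes had a slope that differed between E21 and numeric libraries. The slope on Dbp differed for 2 of 9 members, Per3 and Npas2, at 29.3% of all genes, and the slope on Bmal1 for 5 of 9, Per1, Per2, Per3, Npas2 and Nr1d2, at 46%. Per3 changed by -0.42 per log2 unit of Dbp in E21 and by 0.32 in numeric libraries (difference -0.74, SE 0.18, limma adjusted p = 0.00163). Nr1d2 changed by 0.02 per unit of Bmal1 in E21 and by -0.46 in numeric libraries (difference 0.48, SE 0.14, limma adjusted p = 0.00376). The slopes that tie Dbp, Nr1d1 and Bmal1 were not called as different: Nr1d1 on Dbp had 0.68 in E21 and 0.53 in numeric libraries (difference 0.15, SE 0.11), and Bmal1 on Dbp had -0.50 in E21 and -0.49 in numeric libraries (difference -0.02, SE 0.15). Over the 123 libraries limma called no member and no gene for either, with 2404 genes for Dbp and 1323 for Bmal1 at an unadjusted p under 0.05, and 1 member for Dbp and 0 for Bmal1 at that level.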

How the data were processed

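The authors deposited 1 table of log2 values, the log2 of an expected count plus 1 for 38354 genes in 159 libraries, as its values show; kallisto 0.48 is named in the submitters' processing notes. For annotation and genome build, no name is given in the sources used here. Labels exist for 192 libraries, and the 33 without a column were not analysed here. Each deposited value was turned back into an expected count, scaled to counts per 1000000 (CPM) of the library's total and tested as log2(CPM + 1). Genes averaging at least 1 CPM over the 147 libraries with at least 100 CPM of Drd1 were kept, 15327 in all. Total counts ranged from 14.6 to 61.2 M (M, 1000000 counts).

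Groups follow the format of the rat identifier, and no label gives a date or batch. Each library has its own rat identifier, so p-values measure the spread between these libraries. Comparisons, slopes and slope differences were fitted by limma 3.58.1 in R 4.3.3 with a mean-variance trend, 2-sided, with Benjamini-Hochberg adjustment over all genes tested, and tested on simulated data. Differences are on the log2(CPM + 1) scale, which understates changes of low genes. Permutation tests used 100000 resamples in Python 3.11.15 with numpy 2.4.6, pandas 2.3.3 and scipy 1.17.1, and figures matplotlib 3.10.9. The 10 members, the gene lists and the tests were chosen with earlier results of these data known.

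Named genes are the members, the 3 genes of highest and 3 of lowest r with each member outside the lists (mean of at least 10 CPM; some are not printed), all tested genes of both clock lists (1 modifier, in the counts, is not reported here by itself), and up to 4 per member of the other lists by smallest p. Alternatives changed the pseudocount to 0.1, the filter to 0.1 CPM, the scaling, the Drd1 minimum (200 CPM, or all libraries), covariates and the formats used. Those with the first principal component were chosen after seeing the data.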

Additional observations from a re-analysis of the deposited data

Results flagged for a closer look

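The slopes between clock genes listed here differed between the E21 and numeric libraries by a limma interaction term, with p adjusted over all genes. On Dbp the slope difference, E21 minus numeric, was -0.74 for Per3 and -0.46 for Npas2. For Npas2 the slope was -0.41 in E21 and 0.04 in numeric libraries (SE of the difference 0.12, limma adjusted p = 0.00195).

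On Bmal1 the difference was 0.56 for Per3, 0.57 for Per1, 0.46 for Per2, 0.28 for Npas2 and 0.48 for Nr1d2. Per1 had a slope on Bmal1 of 0.65 in E21 and 0.08 in numeric libraries (limma adjusted p = 0.0341). Per3 had 0.56 in E21 and 0.00 in numeric libraries (limma adjusted p = 0.00961). Per2 had 0.44 in E21 and -0.01 in numeric libraries (limma adjusted p = 0.0476). Npas2 had 0.40 in E21 and 0.13 in numeric libraries (limma adjusted p = 0.0442). In all 5 genes the slope was higher in E21 than in numeric libraries. Of all genes, 29.3% differed likewise for Dbp and 46% for Bmal1. Limma called 0 members without the 24 libraries of low component score, where 1 member for Dbp and 0 for Bmal1 had an unadjusted p under 0.05. The part of that component in these differences was not tested further.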

How the results depend on the processing

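Of 450 values under alternatives, 18 lost and 9 gained a call, 56 moved and 5 reversed, and the others kept their direction and side of the threshold or moved within the spread; for 13 single pairs, 228 of 260 stayed. No paired analysis was possible because each library came from a different rat and the labels link no rats as pairs. In E21 against numeric libraries the count of members called higher (2) was 5 with median-of-ratios or quantile scaling, 6 with all libraries, 4 given the first principal component and 1 with the 0.1 CPM filter, the cortical score or the 3 composition scores; the count called lower (0) was 2 with the cortical score or the 3 scores. In corrected E21 against E21 libraries the count lower (2) was 1 with the 0.1 CPM filter and 0 with all libraries, the cortical score or the 3 scores by limma, where 2, 3 and 1 members had an unadjusted p under 0.05. Of all genes 132 were called lower with all libraries, 2 with the cortical score and 0 with the 3 scores. The median r of the output genes (0.37) was 0.50 with all libraries and 0.26 given the component and the cortical score. That of the Bmal1 group (0.39) was 0.71 with all libraries, 0.28 given the cortical score or the component, 0.16 given both and 0.26 within numeric libraries. Between the groups it (0.12) was 0.53 with all libraries, -0.03 given the cortical score, -0.06 given the 3 scores, -0.05 with format added, 0.01 given the component, -0.16 given the component and cortical score, 0.03 without libraries of low component score, 0.03 within numeric and -0.27 within corrected E21 libraries. With all libraries r was 0.29 for Dbp with Bmal1 and 0.21 for Nr1d1 with Bmal1, and within E21 libraries 0.02 for Nr1d2 with Bmal1. Slope differences between formats (7) numbered 4 with median-of-ratios scaling or the cortical score, 3 with quantile scaling and 0 given the component or without libraries of low component score. The members' median SD (0.22) was 0.31 with all libraries. The cause was not tested for any of these. The labels carry no time of day, so phase cannot be read from these values, and r over 147 libraries has a standard error of about 0.083 near 0.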

Other observations

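The 11 libraries with high Th and low Drd1 entered no comparison, and their clock gene levels are given as values only, with no test. Npas2 ranged over 12.9, 15 and 20.6 CPM in them (lowest, median and highest), Dbp over 71.4, 96 and 118 CPM and Nr1d1 over 36.5, 52.7 and 69.6 CPM. Bmal1 ranged over 17, 22.3 and 30.8 CPM, Per1 over 21.3, 30.5 and 45.1 CPM, and Nr1d2 over 59.7, 75.7 and 98 CPM. In the 147 other libraries the lowest values were 67.7 CPM for Npas2 and 131 CPM for Dbp, above all 11, whereas the ranges of Nr1d1, Bmal1, Per1 and Nr1d2 overlapped. The library rich in Slc17a7 had 115 CPM of Npas2, 125 CPM of Nr1d1 and 64.2 CPM of Bhlhe41.

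Oligodendrocyte markers, not described so far, ran against Nr1d1. Of the 8 markers 7 had a negative and 0 a positive called slope on Nr1d1 by limma, with a median r of -0.27 against -0.07 over all genes, and 4 had a negative one on Dbp; of all genes 26.3% were called on Nr1d1 and 52.4% on Dbp in either direction. The mean z-score of the list had r = -0.31 with Nr1d1 (adjusted permutation p = 0.000415 over 90 relations), with -0.75 in corrected E21, -0.36 in E21 and -0.26 in numeric libraries. Of 5 endothelial markers 4 had a negative called slope on Per2 and 4 on Bmal1, at median r of -0.31 and -0.27, where 67.8% and 53.1% of all genes were called in either direction.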
